A study of Eulimnogammarus verrucosus and Eulimnogammarus cyaneus and Gammarus lacustris with 24 samples.

Results

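The exoskeleton of an amphipod, a small shrimp-like crustacean, is a layered cuticle of chitin fibres, cuticle proteins and calcium salts that is shed and rebuilt at each molt. The genes described here are the gene names of the authors' 3 deposited result tables that match a fixed set of symbols for cuticle proteins, for enzymes that make, modify or digest chitin, and for the steroid-hormone side of molting. The symbols matched 55 of 12688 table entries. These were 27 of the 5094 entries of Gammarus lacustris, 18 of the 3920 of Eulimnogammarus verrucosus and 10 of the 3674 of Eulimnogammarus cyaneus. These entries carry 30 distinct names. Of those, 20 are known as cuticle, chitin or molting genes, and 10 were caught only by how they are spelled, such as the troponins C of muscle. The second kind is described apart, and the label of the set describes the first kind only.

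In arthropods a rise of ecdysteroid hormone starts the molt: the epidermis detaches from the old cuticle, chitinases and hexosaminidases in the molting fluid digest it, and a new cuticle is secreted beneath. Chitin synthase in the epidermis spins the new chitin, chitin deacetylases change its surface, and cuticle proteins of the CPR and Cpap3 families bind to it. Genes of these kinds can therefore rise and fall in level with the stage of the molt cycle, which was not shown here for any of the names. The labels give no molt stage for any animal.

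RNA of whole adult animals was sequenced in 24 libraries. All animals were held for 14 days at 6 °C, shifted over about 6 days to 1.5 or 12 °C, and then exposed to that temperature for 1 month. E. verrucosus and E. cyaneus are species of Lake Baikal and G. lacustris is a widespread Holarctic species. Each of the 6 groups, E. verrucosus, E. cyaneus and G. lacustris at 1.5 and at 12 °C, had 4 pools of animals. A pool held 3 animals of E. verrucosus, about 11 of G. lacustris or about 13 of E. cyaneus. No untreated group at 6 °C was used here. The pools of a group are separate sets of animals, so a p-value sets a temperature difference against the spread between pools. The comparison in each species asks which genes differ in level between animals kept in the cold and animals kept in the warm.

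Estimated counts per library summed to between 8.50 and 15.4 Mreads (megareads). Levels of 1 gene across pools are given as CPM, counts scaled to a common library size with edgeR's TMM factors. Levels of different genes are compared only as deposited TPM, which is corrected for transcript length. A fold change is the log2 ratio of 1.5 °C to 12 °C, so a negative value is lower in the cold. The CPM or TPM of a name is the sum over its transcripts. The files do not state which transcript carries which gene name. Names were joined to transcripts through identical mean values, which gave transcripts to 21 of 27 G. lacustris, 17 of 18 E. verrucosus and 9 of 10 E. cyaneus names. For the other 8 names only the authors' deposited values exist here. A name counts as called when at least 1 of its transcripts had an adjusted p under 0.05 in edgeR (quasi-likelihood test, Benjamini-Hochberg over every transcript that entered the fit of the species), and its fold change is that of its most abundant transcript. Equal names in different species were not shown to be orthologs.

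Each species has its own assembly, so TPM was ordered only within a species, and only over names joined to transcripts. Cpap3-a1 of E. verrucosus was not joined and has no TPM here, so its place is not known. Its deposited mean was 18497 normalised counts, with 17274 for Cda5, and these are not corrected for transcript length between genes. In E. verrucosus the highest mean TPM over the 8 pools belonged to the chitin deacetylase Cda5, at 784 TPM, ahead of the cuticle protein CPR23 at 351 TPM and the chitinase Cht3 at 228 TPM. Their ranges over the pools overlapped, from 17.3 to 1966 TPM for Cda5, from 3.22 to 1523 TPM for CPR23 and from 27.6 to 457 TPM for Cht3, so these neighbours cannot be ordered beyond their spread.

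In E. cyaneus the order was led by the cuticle protein CPR21 at 389 TPM (range 14.5 to 822), the chitin-binding protein Cpap3-d2 at 103 TPM (70.5 to 136) and the hexosaminidase Hexo1 at 76.2 TPM (28.1 to 152). In G. lacustris it was led by Cda5 at 403 TPM (251 to 736), CPR21 at 374 TPM (71.5 to 603) and Cpap3-a1 at 99.2 TPM (42.9 to 156). In both species the ranges of the first and the second overlapped, as did those of the second and the third. Among names joined to transcripts, Cda5 thus headed the list in 2 species. In E. cyaneus, in contrast, the entry of that name rested on a 280-base transcript with between 0 and 8 reads per pool.

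**Figure D1:**
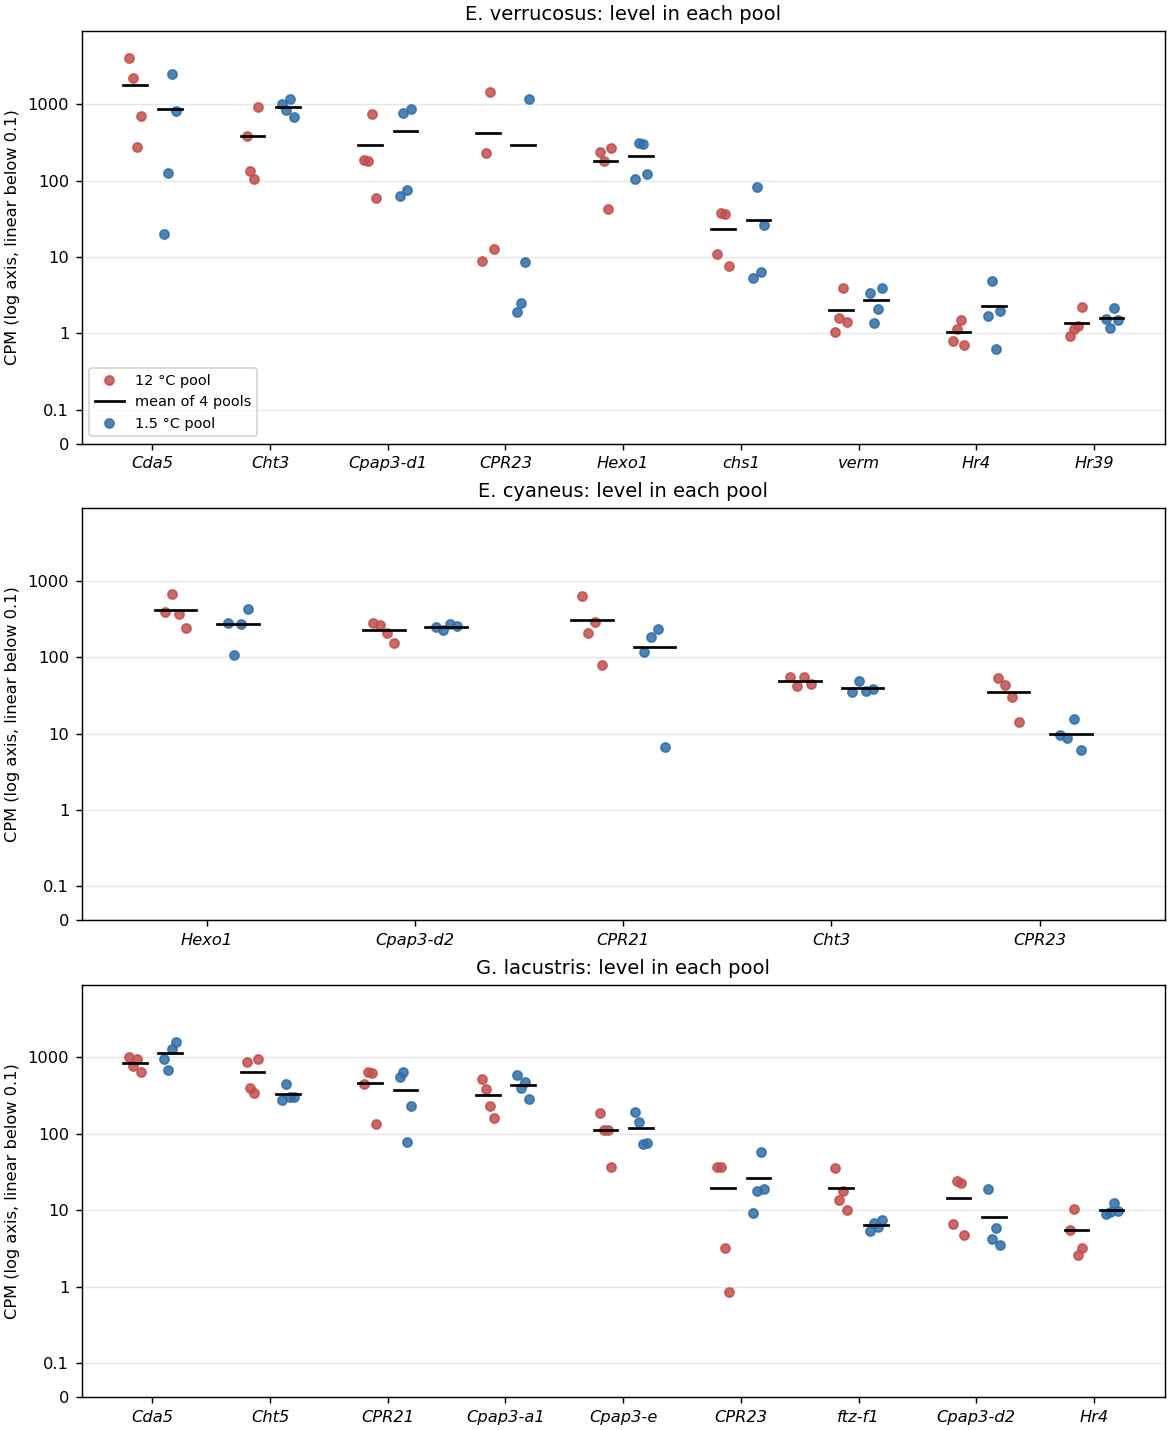
CPM of each cuticle, chitin and molting name with a mean of at least 1 CPM, on a log axis that is linear below 0.1, for the 4 pools at 12 °C (red) and the 4 at 1.5 °C (blue) of each species. Bars are means of 4 pools. Pools of one temperature lie far apart for CPR23 and Cda5 of E. verrucosus, while in G. lacustris the ftz-f1 pools at 1.5 °C all lie below those at 12 °C.

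In E. verrucosus, pools of both temperatures overlapped for the genes with pool values below, and for several the pools within a temperature were far apart. How often pools overlap among all names of the species is not given here. CPR23, a cuticle protein with the Rebers and Riddiford chitin-binding consensus, had 8.77, 226, 1426 and 12.9 CPM in pools 1 to 4 at 12 °C and 1.89, 2.47, 8.46 and 1156 CPM at 1.5 °C. Thus 1 warm and 1 cold pool were at 1156 CPM or more, while 5 of the other 6 were at 12.9 CPM or less. The highest and lowest pool differed 752-fold. Its leading transcript had a log2 fold change of −1.06 (SE 2.43, edgeR adjusted p = 0.94). The authors' deposited table gives CPR23 and Cpap3-a1 of this species a log2 fold change (−0.48 and 1.08) but no p-value.

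Cpap3-d1, a cuticle protein of the family resembling peritrophins, had 184, 178, 752 and 58.8 CPM at 12 °C and 61.8, 774, 76.0 and 861 CPM at 1.5 °C. The chitin synthase chs1 had 11.0, 37.3, 36.6 and 7.58 CPM at 12 °C and 5.29, 83.1, 6.27 and 26.3 CPM at 1.5 °C. Cpap3-d1 was at or above 752 CPM in 3 pools, 12 °C pool 3 and 1.5 °C pools 2 and 4, and chs1 ranked 3, 1 and 4 of 8 in the same pools. CPR23 ranked 1 in 12 °C pool 3 and 2 in 1.5 °C pool 4, but 7 in 1.5 °C pool 2. The log2 fold changes were 0.48 for Cpap3-d1 (SE 1.01, edgeR adjusted p = 0.94) and 0.41 for chs1 (SE 0.92, edgeR adjusted p = 0.94).

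The enzymes acting on existing chitin also varied between pools, Cht3 (11.2-fold) and Hexo1 (7.35-fold) less than Cda5. Cda5, a chitin deacetylase, had 3980, 2224, 276 and 707 CPM at 12 °C and 20.2, 127, 2449 and 822 CPM at 1.5 °C, a 197-fold range with both temperatures overlapping. Cht3, a chitinase, had 387, 135, 104 and 919.8 CPM at 12 °C and 990.4, 844, 1162 and 679.7 CPM at 1.5 °C. All 4 cold pools of Cht3 exceeded 3 of the 4 warm pools, and 12 °C pool 4 lay among the cold ones. Hexo1, a hexosaminidase that trims the ends of chitin fragments, ranged from 42.6 to 269 CPM at 12 °C and from 104 to 313 CPM at 1.5 °C. The pool richest in CPR23, 12 °C pool 3, held the lowest Cht3 and Hexo1 of all 8 pools. The second richest, 1.5 °C pool 4, ranked 5 for Cht3 and 6 for Hexo1. The pool poorest in CPR23, 1.5 °C pool 1, ranked 2 for Cht3 and 7 for Hexo1.

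The log2 fold changes of these enzymes were −1.07 for Cda5 (SE 1.28, edgeR adjusted p = 0.87), 1.25 for Cht3 (SE 0.66, edgeR adjusted p = 0.56) and 0.19 for Hexo1 (SE 0.64, edgeR adjusted p = 0.97). Cda5 moved to −0.33 without 12 °C pool 1 and to −2.49 without 1.5 °C pool 3. Without 12 °C pool 4, Cht3 was called through 1 of its less abundant transcripts, while its leading transcript lay at 2.09 (edgeR adjusted p = 0.16). The second deacetylase of the table, verm, was scarce, at 1.05 to 3.94 CPM in the warm and 1.37 to 3.97 CPM in the cold. Among the nuclear receptors of the hormone cascade, Hr4 had 0.703 to 1.51 CPM in the warm and 0.627 to 4.80 CPM in the cold, and Hr39 had 0.916 to 2.22 and 1.17 to 2.13 CPM. CHIA and Cht6, both named as chitinases, had between 0 and 28 and between 0 and 8 reads per pool and were not tested.

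**Figure D2:**
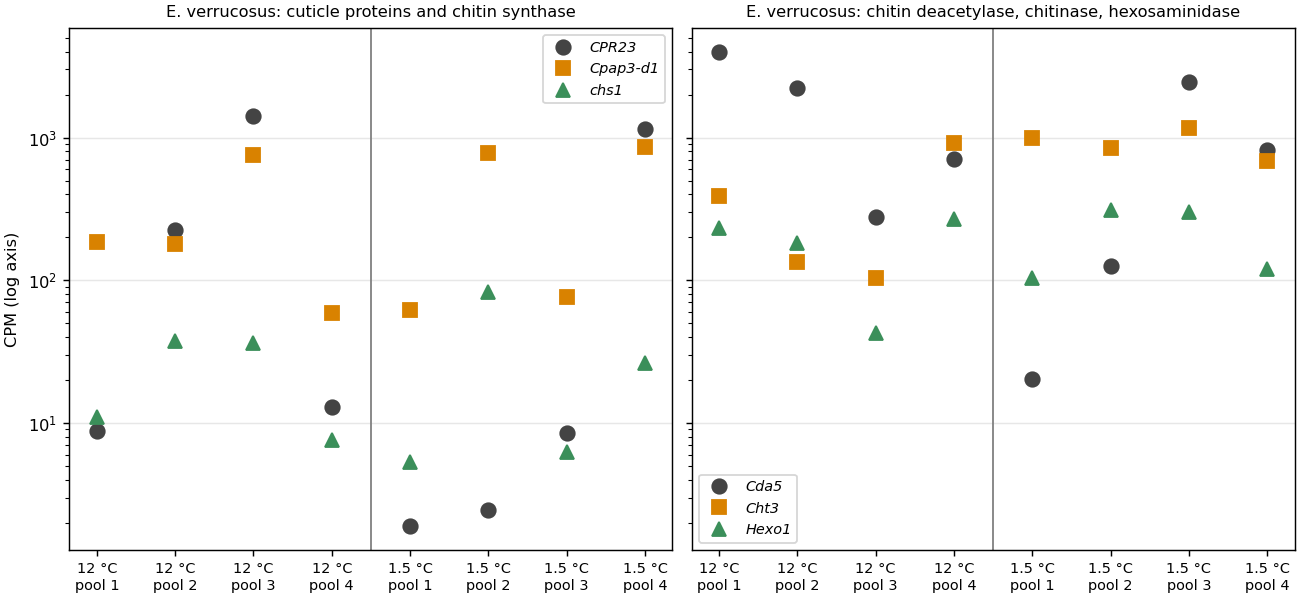
CPM on a log axis in each of the 8 E. verrucosus pools, with 3 animals per pool, for cuticle proteins and chitin synthase (left) and for the chitin deacetylase Cda5, the chitinase Cht3 and the hexosaminidase Hexo1 (right). The vertical line divides 12 °C from 1.5 °C pools. CPR23 reaches 1426 CPM in 12 °C pool 3 and 1156 CPM in 1.5 °C pool 4 and lies at or below 226 CPM in the other 6.

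Of the 12 E. verrucosus names with a tested transcript, edgeR called 0, where 1.97% of all tested names of the species were called. Of these 12 names, 9 are of known cuticle, chitin or molting role and the others were caught by spelling. In counts simulated for this species, edgeR recovered 2% of 4-fold and 31% of 8-fold changes, so a count of 0 does not show absence of change. At an unadjusted p under 0.05, 2 leading transcripts passed, both troponins C, and neither DESeq2 nor the authors' deposited table called any name. The authors call 4.69% of all names in that table. Of the 12 leading transcripts 7 were higher and 5 lower in sign, with a median of 0.18, beside a median of −0.03 over all tested transcripts.

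In E. cyaneus the cuticle protein CPR23 was the name nearest to a call. It had 53.7, 42.7, 30.2 and 14.1 CPM at 12 °C and 9.59, 8.70, 15.4 and 6.15 CPM at 1.5 °C. The 3 highest pools were all warm, and 12 °C pool 4 fell just under 1.5 °C pool 3, so the groups overlapped. The log2 fold change was −1.82 (SE 0.42), with an adjusted p of 0.098 by edgeR and 0.0027 by DESeq2. The authors' deposited table gives −1.93 (SE 0.40, adjusted p = 1.69e-04), where it calls 6.27% of all names of the species and 4.03% as lower.

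Marker genes of other tissues were read in the same pools. The summed level of the muscle markers (9 of 12 listed names had transcripts, none at 0 in all pools) was 12140 to 31485 CPM at 12 °C and 6563 to 10479 CPM at 1.5 °C, without overlap. edgeR called 0 of 6 tested muscle names, where it called 0.511% of all names. The authors' deposited table called 4 of 8 lower, beside 4.03% of all its names. The hepatopancreas and gut markers (13.0 to 80.3 and 18.4 to 23.9 CPM) and the hemocyte marker (0.529 to 4.34 and 2.38 to 7.38 CPM) overlapped between temperatures, with 0 called. The yolk protein gene Vg had 105 to 424 CPM at 12 °C and 953 to 1796 CPM at 1.5 °C (2.62 on the log2 scale, SE 0.42, edgeR adjusted p = 0.0296). Their part in the CPR23 difference was not tested. In RNA of whole bodies, fewer cells of a type and less RNA per cell cannot be told apart.

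The other structural proteins of E. cyaneus showed 2 kinds of spread. CPR21, also of the Rebers and Riddiford type, had 641, 208, 292 and 78.4 CPM at 12 °C and 118, 184, 235 and 6.68 CPM at 1.5 °C, lowest in pool 4 of each temperature. Its log2 fold change was −1.17 (SE 0.86, edgeR adjusted p = 0.57). Cpap3-d2, in contrast, had 278, 263, 208 and 155 CPM in the warm and 248, 227, 272 and 255 CPM in the cold, a range of 1.79-fold over all pools (0.15, SE 0.22, edgeR adjusted p = 0.80).

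Among the enzymes, Cht3 was as even, with 54.8, 42.0, 54.3 and 44.3 CPM in the warm and 34.7, 48.2, 36.6 and 38.8 CPM in the cold (−0.34, SE 0.20, edgeR adjusted p = 0.46). Hexo1 had 392, 682, 364 and 242 CPM in the warm and 278, 108, 269.5 and 431 CPM in the cold (−0.73, SE 0.46, edgeR adjusted p = 0.49). Groups overlapped for both enzymes. The entry chs1 rested on transcripts of 576 and 266 bases with 2 to 17 reads per pool and was not tested, like Cda5.

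edgeR called 0 of the 6 tested E. cyaneus names, where 0.511% of all names were called. Of these 6 names, 5 are of known cuticle, chitin or molting role. At an unadjusted p under 0.05, 1 leading transcript passed, that of CPR23. DESeq2 called 1 name, and the authors' deposited table called 2, CPR23 and TpnCII. Of the 6 leading transcripts 5 were negative, with a median of −0.53 beside 0.01 over all tested transcripts.

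In G. lacustris most of the named genes with a tested transcript were called, and the members are read beside that share. edgeR called 58.4% of 1815 such names: 47.9% were lower and 10.6% higher in the cold, with a name in both counts where its transcripts disagreed. The median log2 fold change was 0.11 over all tested transcripts and −0.51 over the leading transcripts of all names. Cold pools held reads for fewer transcripts, 46637 to 48971 against 51179 to 53778 in the warm, and the part of this in the results below was not tested. The size factors behind the authors' deposited table raise the log2 fold changes of this species by about 0.66 over the TMM scale used here, so direction near 0 depends on the scaling.

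Of the 14 G. lacustris names with a tested transcript, 4 were called, all lower in the cold, beside the 47.9% of all names that were lower. These 14 include names caught by spelling. Of the 9 names of known cuticle, chitin or molting role, 1 was called, where 58.4% of all names were called. Of the leading transcripts of all 14, 6 were higher and 8 lower in sign, with a median of −0.18. The authors' deposited table calls 9 of its 27 names, 5 lower and 4 higher, where it calls 58.9% of all names, 33.8% lower and 25.1% higher. The only one of the 4 with a known molting role was ftz-f1, a nuclear receptor that in insects acts as ecdysteroid levels decline before the molt is completed. It had 36.0, 13.6, 17.8 and 10.1 CPM at 12 °C and 5.41, 6.79, 6.04 and 7.35 CPM at 1.5 °C. All 4 cold pools lay below the lowest warm pool and close to each other, while the warm pools spread 3.56-fold. The level fell by 1.59 on the log2 scale (SE 0.39, edgeR adjusted p = 0.0071), a larger fall than the median of all names. With the authors' size factors the edgeR change was −0.86 (adjusted p = 0.041), and the authors' deposited table gives −0.87 (SE 0.32, adjusted p = 0.015).

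Hr4, the receptor that in Drosophila represses early ecdysone-response genes, had 5.56, 10.4, 2.60 and 3.24 CPM at 12 °C and 8.92, 9.42, 12.3 and 9.80 CPM at 1.5 °C. The cold pools lay together near the highest warm pool, 12 °C pool 2. The difference was not called by edgeR (0.89, SE 0.43, adjusted p = 0.13). It was called without 12 °C pool 2 (1.58, adjusted p = 0.0065) and with the authors' size factors (1.54, adjusted p = 0.011). The authors' deposited table calls it as well (1.54, SE 0.40, adjusted p = 4.21e-04). Hr39 had 0 to 3 reads per pool, and Hr96, a receptor linked to foreign compounds in Drosophila, is given by the authors' deposited table alone (−0.57, SE 0.30, adjusted p = 0.095).

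**Figure D3:**
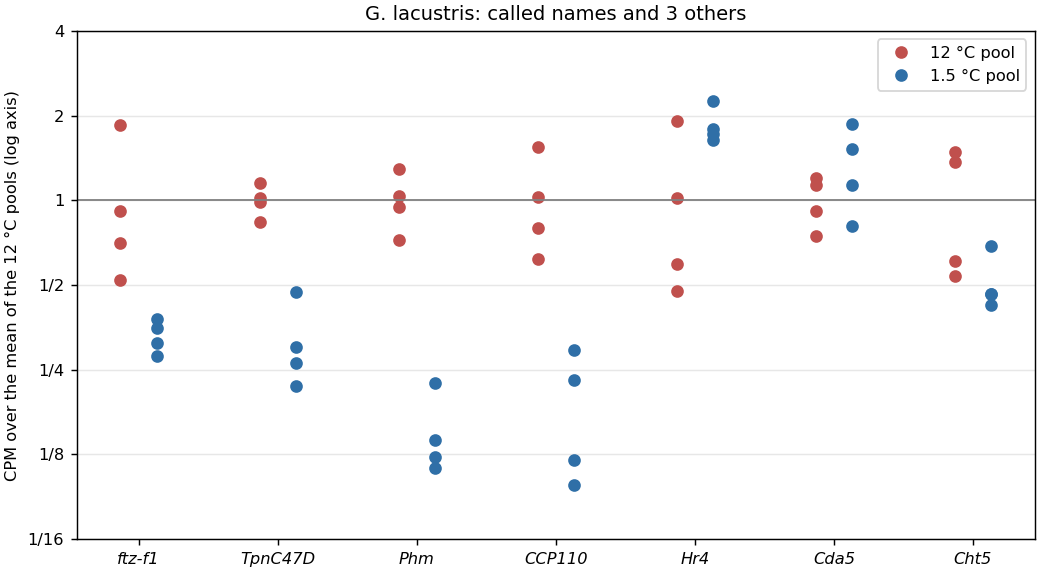
CPM in each G. lacustris pool divided by the mean of the 4 pools at 12 °C, on a log axis, for the 4 names called by edgeR (ftz-f1, TpnC47D, Phm, CCP110) and for Hr4, Cda5 and Cht5, which were not called. The cold pools (blue) of the 4 called names all lie below the warm pools (red), and those of the other 3 overlap them.

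Of the chitin enzymes of G. lacustris, Cda5 and Cht5 had tested transcripts, and edgeR called neither in the main comparison. Cda5 had 1023, 782, 962 and 636 CPM in the warm and 966, 691, 1299.6 and 1594 CPM in the cold. The 2 highest pools were cold, and the others interleaved. Its 5 transcripts did not all move the same way, with 0.71 for the leading one (SE 0.35, edgeR adjusted p = 0.14) and −0.52 for the second (SE 0.39, edgeR adjusted p = 0.33). The authors' deposited table calls the name higher (1.27, SE 0.30, adjusted p = 1.25e-04), and so did edgeR with the authors' size factors (1.36, adjusted p = 0.0060). It was also called without 1.5 °C pool 1 (1.05, adjusted p = 0.034) and without 1.5 °C pool 2 (1.11, adjusted p = 0.014).

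Cht5, in insects the main chitinase of the molting fluid, had 880.3, 393, 347 and 959 CPM in the warm and 274, 444, 299 and 299.5 CPM in the cold. The warm pools fell into a high and a low pair, with pools 1 and 4 high, and the low pair lay within the range of the cold pools. Its log2 fold change was −0.97 (SE 0.35, edgeR adjusted p = 0.051), −1.19 without 12 °C pool 3 (adjusted p = 0.017) and −0.32 with the authors' size factors (adjusted p = 0.43). Cht3, the chitin synthase chs1 and CHIT1 had no transcript here. The authors' deposited table gives −0.29 (SE 0.71, adjusted p = 0.73) for Cht3, −0.42 (SE 0.72, adjusted p = 0.62) for chs1 and −1.03 (SE 0.52, adjusted p = 0.074) for CHIT1.

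The deacetylase verm, which in Drosophila is secreted into the lumen of the tracheal tubes, was near the detection limit. It had 21, 9, 8 and 7 reads in the warm pools and 2, 1, 1 and 0 reads in the cold pools. The groups did not overlap, but the read counts were too low for the main comparison. The authors' deposited table calls verm lower (−2.89, SE 0.99, adjusted p = 0.0076). CHIA, Cht6 and Cht7 had 0 to 13, 0 to 3 and 0 to 5 reads per pool.

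The pools of both temperatures overlapped for the cuticle proteins of G. lacustris. The share of all names of the species with such overlap is not given here. CPR21 had 444, 639, 619 and 135 CPM in the warm and 557, 649, 78.4 and 232 CPM in the cold (−0.28, SE 0.62, edgeR adjusted p = 0.75; 0.41 with the authors' size factors). CPR23 had 37.3, 36.8, 3.17 and 0.858 CPM in the warm and 9.11, 17.7, 58.4 and 19.0 CPM in the cold (0.42, SE 0.96, edgeR adjusted p = 0.76). Both proteins therefore ranged widely, 8.27-fold and 68.1-fold over the pools, with different pools at the top.

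Of the Cpap3 proteins, Cpap3-a1 had 522, 381, 233 and 160.4 CPM in the warm and 581, 395, 485 and 287 CPM in the cold. The leading transcript lay at 0.13 (SE 0.41, edgeR adjusted p = 0.83) and the second at 1.15 (SE 0.60, edgeR adjusted p = 0.16). The authors' deposited table calls the name higher (1.14, SE 0.33, adjusted p = 0.0013), whereas edgeR with the authors' size factors gave 0.84 for the leading transcript (adjusted p = 0.076) and called the other one. Cpap3-e ranged from 36.5 to 186 CPM in the warm and from 74.1 to 190.5 CPM in the cold. Cpap3-d2 had 4.67 to 24.3 CPM in the warm, and in the cold 19.2 CPM in pool 1 against 3.50 to 5.81 CPM in the other pools.

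**Figure D4:**
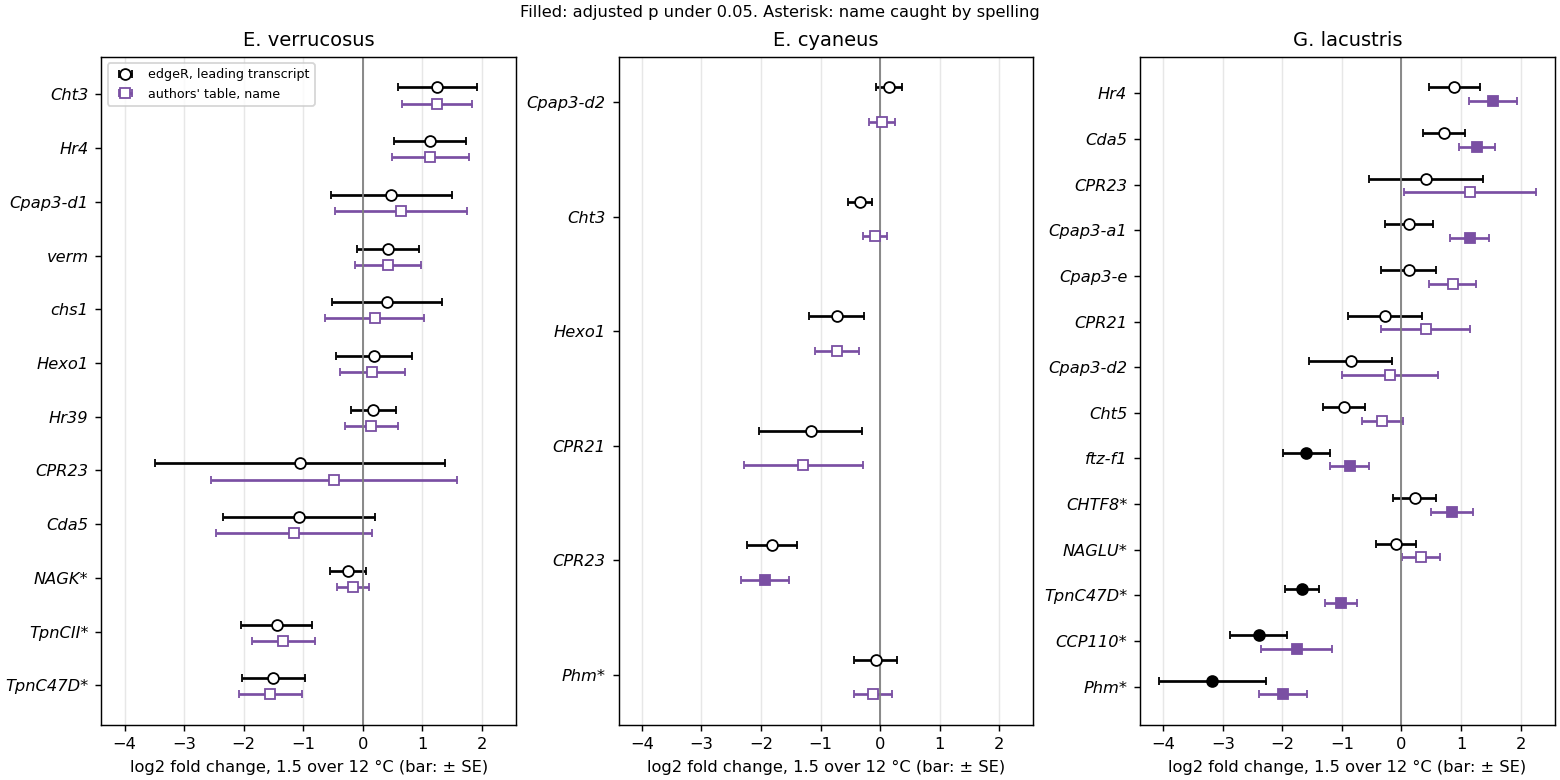
Log2 fold change with its standard error for each name with a tested transcript, by edgeR for the leading transcript (circles) and from the authors' deposited table for the name (squares). Filled symbols have an adjusted p under 0.05, and an asterisk marks names caught only by their spelling. In G. lacustris the authors' values lie to the right of edgeR's, with a mean shift of 0.66 from the size factors.

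The spread between pools of one temperature was large for these genes next to other transcripts of like level. It was measured as the SD within groups of log2 CPM (0.5 CPM added) and set beside all tested transcripts within 1 log2 unit in mean level. Over names of known cuticle, chitin or molting role, the median SD was 1.17 in E. verrucosus (9 names), 0.69 in E. cyaneus (5 names) and 0.73 in G. lacustris (9 names). The medians for transcripts of like level were 0.53, 0.39 and 0.37.

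The SD exceeded the median of like transcripts in 8 of 9, 3 of 5 and 9 of 9 names. It exceeded that of 90% of them for CPR23 (SD 4.37), Cda5 (2.47) and chs1 (1.52) in E. verrucosus, for CPR21 (1.87) in E. cyaneus, and for CPR23 (1.88), CPR21 (1.24) and Cpap3-d2 (1.16) in G. lacustris. CPR proteins thus appear in all 3 species. Below the median lay Hr39 (0.34) in E. verrucosus and Cpap3-d2 (0.28) and Cht3 (0.21) in E. cyaneus. Pools were of different size in the 3 species, and the part of pool size, molt stage or any other difference between animals in this spread was not tested.

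**Figure D5:**
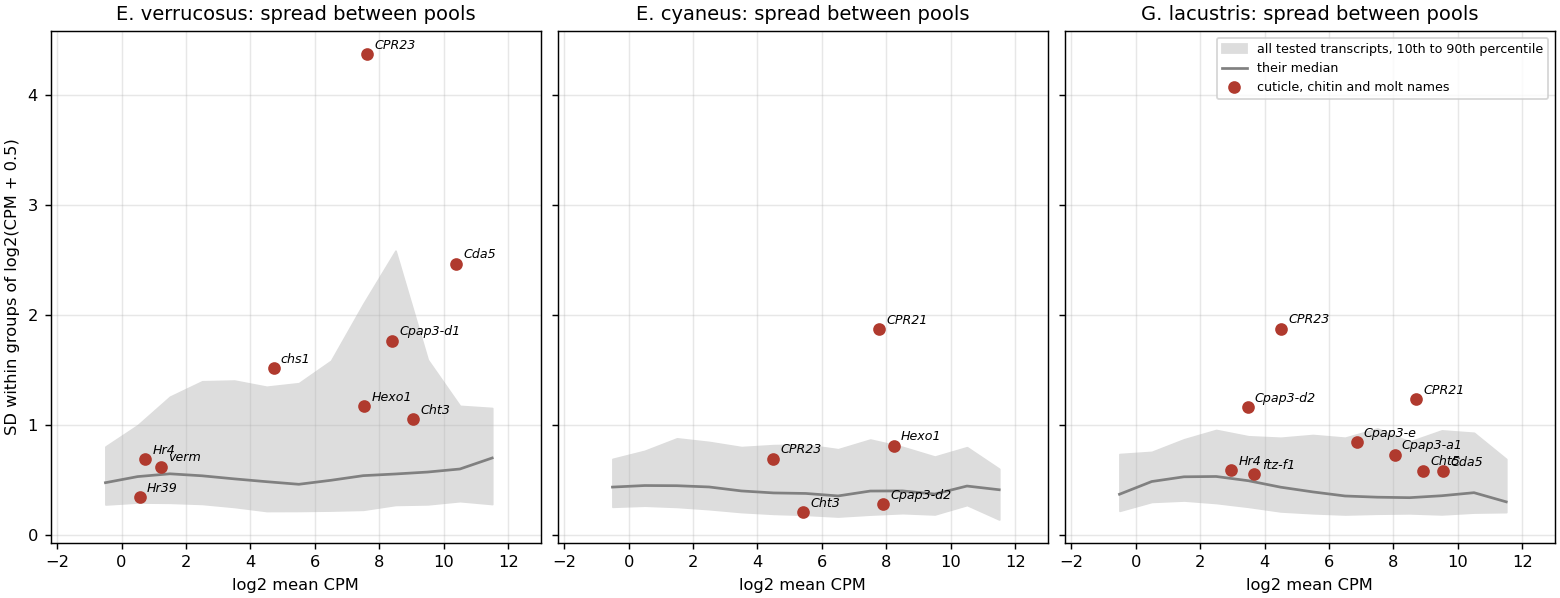
SD within temperature groups of log2(CPM + 0.5) against log2 mean CPM for the leading transcript of each cuticle, chitin and molting name (red). The grey line is the median and the grey band the 10th to 90th percentile of all tested transcripts of the species. CPR23 of E. verrucosus has an SD of 4.37, and CPR21 of E. cyaneus one of 1.87.

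For each pair of species a model of species and temperature was fitted to counts summed per name. Of 17 differences tested, 2 had an adjusted p under 0.05. For verm, the change was 0.42 in E. verrucosus and −3.48 in G. lacustris, a difference of −3.89 (SE 0.95, edgeR adjusted p = 0.0031), where 42.7% of all names differed between these species and 1 of 7 did here. This rests on the few verm reads of G. lacustris given above, which did not pass the filter in that species alone. For Phm, the change was −0.08 in E. cyaneus and −2.72 in G. lacustris, a difference of −2.65 (SE 0.51, edgeR adjusted p = 3.3e-04), where 44.2% of all names differed and 1 of 5 did here. Between E. verrucosus and E. cyaneus 0 of 5 differed by edgeR, beside 1.72% of all names. In that pair 1 had an unadjusted p under 0.05, Cht3, with 1.25 in E. verrucosus and −0.30 in E. cyaneus (difference −1.55, SE 0.69, edgeR adjusted p = 0.29).

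CPR23, the only cuticle protein named in all 3 tables, differed in the size of its change by −1.30 (SE 2.18, edgeR adjusted p = 0.83) between E. verrucosus and E. cyaneus. Between E. cyaneus and G. lacustris the difference was 2.24 (SE 0.97, edgeR adjusted p = 0.063), from −1.82 to 0.42. Cda5 differed by 1.87 between the same species (SE 0.84, edgeR adjusted p = 0.073), from −1.45 in E. cyaneus, on few reads, to 0.42. Those pairs share the libraries of a species, so their values are not independent.

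Among the names caught by spelling, 1 of the 2 troponins C of G. lacustris was lower in the cold. TpnC47D, a calcium sensor of the muscle thin filament, had 33.5, 24.3, 28.7 and 29.6 CPM in the warm and 7.69, 6.35, 13.7 and 8.75 CPM in the cold, without overlap (−1.67, SE 0.29, edgeR adjusted p = 9.81e-04). The summed muscle markers (13 of 16 names with transcripts, none at 0 in all pools) had 10037 to 12142 CPM in the warm and 7476 to 10464 CPM in the cold. edgeR called 4 of 8 tested marker names lower, near the 47.9% of all names. The authors' deposited table called 4 of 15 lower and 1 higher, MYL6 (1.16), beside 33.8 and 25.1% of all names. It did not call sls (−0.21) and TNNI1 (0.05), which edgeR called lower. The part of the muscle markers in the TpnC47D difference was not tested. TpnCII of the same species is given by the authors' deposited table alone, at 0.08 (SE 0.22, adjusted p = 0.76).

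In E. verrucosus TpnC47D had 30.8, 11.0, 62.6 and 17.8 CPM in the warm and 9.67, 15.9, 9.22 and 8.32 CPM in the cold (−1.50, SE 0.53, edgeR adjusted p = 0.28). TpnCII had 181, 60.7, 209 and 44.4 CPM in the warm and 57.3, 74.3, 44.6 and 33.1 CPM in the cold (leading transcript −1.45, SE 0.60, edgeR adjusted p = 0.40). For both, pools 1 and 3 at 12 °C stood highest. The summed muscle markers were highest in 12 °C pool 1 (86119 CPM), then in 1.5 °C pool 4 (55642 CPM), the lowest pool for both troponins, and then in 12 °C pool 3 (48214 CPM). In E. cyaneus the authors' deposited table calls TpnCII lower (−0.91, SE 0.19, adjusted p = 2.21e-04), beside the muscle marker levels of that species given above.

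Phm, which in Drosophila is the peptide-amidating hydroxylase rather than the ecdysteroid enzyme phantom, had 8.07, 5.88, 6.45 and 4.48 CPM in warm and 0.759, 0.876, 0.697 and 1.40 CPM in cold G. lacustris. The groups did not overlap (−3.18, SE 0.90, edgeR adjusted p = 0.015 for the leading transcript). Without 1.5 °C pool 4 the value was −5.34 (adjusted p = 0.0024), and without any other single pool it lay between −3.25 and −2.56 (adjusted p up to 0.0498). In E. cyaneus Phm ranged from 8.20 to 22.7 CPM in the warm and from 7.87 to 18.5 CPM in the cold. The centriolar protein gene CCP110 of G. lacustris had 3.70, 2.44, 1.47 and 1.91 CPM in the warm and 0.285, 0.548, 0.232 and 0.700 CPM in the cold (−2.40, SE 0.48, edgeR adjusted p = 0.0022), without overlap. These values rest on 13 to 28 reads per warm and 2 to 6 reads per cold pool.

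The rest of the spelled matches were not called by edgeR in the main comparison. CHTF8, a subunit of a clamp loader for sister chromatid cohesion, had 3.84, 4.10, 4.41 and 3.72 CPM in warm and 3.13, 3.29, 4.995 and 7.35 CPM in cold G. lacustris, and the authors' deposited table calls it higher (0.85, SE 0.35, adjusted p = 0.030). The lysosomal enzyme gene NAGLU of that species had 16.1 to 34.6 CPM in the warm and 17.0 to 24.0 CPM in the cold. At least 1 of its 5 transcripts was called without the low-count filter, with the authors' size factors and in 5 of the 8 fits that left out a pool. NAGK, an N-acetylglucosamine kinase, had 6.02 to 11.9 CPM in the warm and 6.95 to 9.05 CPM in the cold in E. verrucosus. LCP1, CHTF18 and NAGLU of E. verrucosus had at most 10 reads in any pool, and without the low-count filter LCP1 was called in G. lacustris, with 2 to 4 reads per warm and 0 per cold pool.

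Genes around the pathway were counted from lists of symbols. Of the hormone and receptor list, edgeR called 0 of 3 tested names in each Baikal species, beside 1.97% of all names in E. verrucosus and 0.511% in E. cyaneus. It called 1 of 2 in G. lacustris, near the 58.4% of all names called there. A transcript of the receptor coactivator NCOA2 was lower (−2.94, SE 0.34, adjusted p = 2.88e-04). The sum of NCOA2 transcripts did not overlap, at 28.6 to 44.7 CPM in the warm and 18.4 to 23.8 CPM in the cold. For NCOA2 the authors' deposited table gives −0.12 for the name (adjusted p = 0.58), on size factors that raise changes by about 0.66. The same table calls Cyp18a1, which in insects inactivates ecdysteroids, higher in G. lacustris (1.07, SE 0.38, adjusted p = 0.0094). Its pools had 8.73 to 21.7 CPM in the warm and 10.2 to 25.3 CPM in the cold, and edgeR gave 0.43 (SE 0.37, adjusted p = 0.40). The table also calls jhamt, the juvenile hormone methyltransferase of insects, higher and NCOA7 lower there, at 3.31 (SE 1.39) and −2.10 (SE 0.40), jhamt on a mean of 3.40 normalised counts.

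Of the list for chitin precursors, edgeR called 0 of 2 tested names in each Baikal species, beside 1.97% of all names in E. verrucosus and 0.511% in E. cyaneus. Both tested names in G. lacustris were called lower, where 47.9% of all names were lower. GPI, the glycolytic isomerase that supplies fructose 6-phosphate, had 6.87 to 17.9 CPM in the warm and 0.350 to 1.42 CPM in the cold (−3.29, SE 0.49, edgeR adjusted p = 5.39e-04). For UAP1, which makes the activated sugar that chitin synthase uses, the called transcript fell by 2.14 (SE 0.44, edgeR adjusted p = 0.0024) while the sum of its transcripts overlapped, at 96.8 to 317 CPM in the warm and 145 to 183 CPM in the cold. The authors' deposited table gives 0.29 for UAP1 (adjusted p = 0.48) and calls GFPT1, the entry enzyme of the pathway, lower (−2.94, SE 1.01, adjusted p = 0.0077). GFPT1 was scarce, with a mean of 6.85 normalised counts, and edgeR did not test it.

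Of the tanning list, edgeR called 0 of 2, 0 of 1 and 0 of 1 tested names in E. verrucosus, E. cyaneus and G. lacustris. It called 1.97, 0.511 and 58.4% of all names in these species. The authors' deposited table called 0 of 2, 0 of 2 and 0 of 3 tanning names, beside 4.69, 6.27 and 58.9% of all its names. Of the list for calcium and matrix, edgeR called 0 of 2 in E. verrucosus and the single tested name in G. lacustris, the carbonic anhydrase CA6, beside 1.97% and 58.4% of all names of these species. No name of E. cyaneus was tested. CA6 had 24.5, 53.7, 31.8 and 39.9 CPM in the warm and 6.07, 7.67, 10.1 and 6.53 CPM in the cold, without overlap (−2.57, SE 0.34, edgeR adjusted p = 3.67e-04). In E. verrucosus the authors' deposited table calls the carbonic anhydrases CA3 (5.57, SE 1.61, adjusted p = 0.018) and CA4 (6.53, SE 1.62, adjusted p = 0.0031) higher in the cold. Both were scarce, with means of 4.72 and 13.6 normalised counts, and CA3 had reads in 3 cold pools and in no warm pool. In G. lacustris the same table calls the matrix metalloprotease MMP15 higher (1.85, SE 0.67) and MMP19 lower (−3.10, SE 0.60). Their means were low, at 8.83 and 18.9 normalised counts.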

How the data were processed

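Whole-body RNA of 24 pools was sequenced, with 4 pools for each of 3 species at each temperature, and groups and replicate numbers come from the labels. Per the labels' protocols, mRNA was purified with Oligotex and libraries were made with ScriptSeq v2. Per the series' design text deposited by the authors, reads were assembled per species with Trinity, reduced with cd-hit-est, filtered with TransRate and kept where they matched animal sequences. The submitters' processing notes name Salmon 1.1.0 and DESeq2 1.26.0. Per the file headers, the deposited files of each library give estimated counts and TPM for every transcript, without further scaling of the counts. The authors' deposited tables list, by gene name, a mean over libraries of normalised counts (a signal), the log2 fold change, its standard error, the Wald score and p-values before and after adjustment.

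Estimated counts were rounded and tested per transcript with edgeR 4.0.16 (R 4.3.3), TMM factors and filterByExpr at its defaults, 4 against 4 pools per species, at a Benjamini-Hochberg adjusted p of 0.05 over the transcripts of the fit. The standard error is the log2 fold change divided by the square root of F. CPM uses the TMM-scaled library size. No name-to-transcript map was used from the files. A transcript, or a sum of transcripts, was paired with a name where its mean, after size factors and effective lengths solved from the values, equalled the deposited mean within a relative 1e-12. This paired 68.5, 72.9 and 63.2% of names in E. verrucosus, E. cyaneus and G. lacustris. Means shifted by a relative 1e-05 gave 0 matches. Fold changes recomputed from the pairs lay within 0.1 log2 of the deposited ones for 99.1, 99.8 and 99.8% of names with a deposited mean over 10. Reads of near-identical transcripts may be split between them, so values of single transcripts of a name are less certain than sums.

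Differences between species were tested by an edgeR interaction on summed counts. Alternatives were RLE factors, DESeq2 1.42.0, no filter, counts summed per name, a replicate block, leaving out each pool, the authors' table and, added after seeing the data, the authors' size factors. Members and lists were chosen with earlier results of these data known. Any name matching the symbols could be named, but 1 of the names is not reported here. Values are given pool by pool for called names, names in all 3 tables and the 3 highest by TPM per species among names joined to transcripts. Replicates were separate libraries, with a chi-square over its degrees of freedom of 25.0 to 243 between pools of a group. Number of series columns not used: 0. Sequences are not shown, since no sequence file was used here. Scripts were tested on counts simulated from the means, library sizes and spread of each species. edgeR recovered 2% of 4-fold and 31% of 8-fold changes in E. verrucosus. The shares recovered were 57 and 85% in E. cyaneus and 27 and 71% in G. lacustris.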

Additional observations from a re-analysis of the deposited data

Results flagged for a closer look

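In 64 groups of 4 pools with a mean of at least 1 CPM, 4 had a pool far from the other 3, by the size of its gap to the nearest. The cut-off flags about 1 in 20 groups by chance if values are normally distributed, which was not tested for CPM. In E. verrucosus, CPR23 had 1426 CPM in 12 °C pool 3 against 8.77 to 226 in the others, and 1156 CPM in 1.5 °C pool 4 against 1.89 to 8.46. In cold G. lacustris, Cht5 had 444 CPM in pool 2 against 274 to 299.5, and Cpap3-d2 had 19.2 CPM in pool 1 against 3.50 to 5.81.

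The temperature change differed between species for verm, by −3.89 from E. verrucosus to G. lacustris (edgeR adjusted p = 0.0031), on at most 2 reads per cold pool of G. lacustris, where verm did not pass the filter within the species, and for Phm, by −2.65 from E. cyaneus to G. lacustris (edgeR adjusted p = 3.3e-04).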

How the results depend on the processing

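In E. verrucosus the count of called names was 0 under every alternative except those leaving out a pool, where it ranged from 0 to 1 (Cht3, without 12 °C pool 4). In E. cyaneus it was 1 with DESeq2, 2 in the authors' deposited table, 0 to 1 with a pool left out (CPR23, without 12 °C pool 4) and 0 otherwise. In G. lacustris it was 4 in the main comparison and 4 to 6 with a pool left out. It rose to 8 without the low-count filter, to 8 with the authors' size factors and to 9 in the authors' deposited table. The 4 names called by edgeR, ftz-f1, TpnC47D, Phm and CCP110, stayed called in each of those alternatives. The 2 differences between species ranged from 2 to 3 with a replicate number left out, and 1 (verm) was left when only names with a single transcript in each species entered, where Phm could not be tested.

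Direction turned for chs1 of E. verrucosus with the replicate block (−0.11), for CPR21 of G. lacustris with the authors' size factors (0.41) and in their table (0.41), and for NAGLU of G. lacustris without the filter (0.071), with the authors' size factors (0.52) and in their table (0.33). Without turning, Cda5 of E. verrucosus ranged from −2.49 to −0.33 and Phm of G. lacustris from −5.34 to −2.56 with a pool left out. Leaving out a pool turned the direction in E. verrucosus for chs1 (−0.87 to 0.76), Cpap3-d1 (−0.083 to 1.56), CPR23 (−9.11 to 1.11), Hexo1 (−0.16 to 0.46) and Hr39 (−0.0029 to 0.51). It did so in E. cyaneus for Cpap3-d2 (−0.0017 to 0.25) and Phm (−0.31 to 0.14), and in G. lacustris for Cpap3-a1 (−0.055 to 0.58), Cpap3-e (−0.10 to 0.52), CPR21 (−0.52 to 0.28), CPR23 (−0.13 to 1.17) and NAGLU (−0.22 to 0.21). None of the names that turned was called in that species in the main comparison, and the cause was not tested.

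With the replicate number as a block, edgeR called 0, 0 and 5 names in the 3 species. Same-numbered pools correlated from −0.26 to 0.15, over 0.1 in 2 of 12 pairs, and pools of different number from −0.27 to 0.35. The labels do not say whether same-numbered pools belong together, and correlations of so few pools cannot decide it. Names of few reads that did not pass the filter were not tested in the main comparison. In G. lacustris 2 of them were called without the filter, LCP1 and verm, and verm also by DESeq2.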
